A study of Rattus norvegicus with 9 samples.

Results

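The 10 genes described here are the bone morphogenetic protein (BMP) ligands Bmp2, Bmp4 and Bmp7, the receptor Bmpr1a, the inhibitors Bambi and Smad6, and the target genes Id1, Id2, Id3 and Id4. They were listed by symbol, with earlier results of these data known, and all 10 were among the 17315 genes in the count tables. They were measured by RNA-seq in rat horizontal basal cells of strain SD, a normally quiet stem cell pool in the olfactory epithelium, grown as a primary culture at passage 7. Vehicle cultures received 0.1% DMSO and are labelled time 0, and the other cultures received 50 nM phorbol 12-myristate 13-acetate (PMA), a phorbol ester that activates protein kinase C, for 6 h or 12 h. Each group had 3 libraries. The series asks how gene expression moves as these cells are activated. No vehicle library is labelled 6 h or 12 h, so the effect of PMA and that of time in culture cannot be told apart. Whether a group's 3 libraries are separate animals or cultures is not labelled, and p-values therefore cover only library-to-library spread, which may be technical.

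BMP ligands bind pairs of type I and type II receptors, which phosphorylate the transducers Smad1, Smad5 and Smad9. These join Smad4, enter the nucleus and switch on target genes, with the Id genes among the best known. Id proteins hold a helix-loop-helix without a DNA-binding basic region, and they tie up E proteins, the partners that tissue-specific bHLH factors need. In the olfactory epithelium, bHLH factors drive progenitors towards neurons, and BMPs are known to act on those progenitors.

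Id1 and Id2 fell between 6 h and 12 h while Id3 and Id4 did not pass in that comparison, so the promoters of Id1 to Id4 are shown side by side. Each sequence runs 5′ to 3′ on the strand of its gene over 200 bases, from 250 to 51 bases before the annotated start (RefSeq, GRCr8). Capitals mark the CCAAT box (CCAAT) and the GC box (GGGCGG), read on both strands. The windows are chr3:161671314-161671513 on the plus strand for Id1, chr6:47471046-47471245 on the minus strand for Id2, chr5:153656041-153656240 on the plus strand for Id3 and chr17:16598344-16598543 on the minus strand for Id4.
Id1: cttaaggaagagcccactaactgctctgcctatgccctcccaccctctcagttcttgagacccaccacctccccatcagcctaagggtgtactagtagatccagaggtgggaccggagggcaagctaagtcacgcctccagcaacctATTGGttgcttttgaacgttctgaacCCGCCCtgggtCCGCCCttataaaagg
Id2: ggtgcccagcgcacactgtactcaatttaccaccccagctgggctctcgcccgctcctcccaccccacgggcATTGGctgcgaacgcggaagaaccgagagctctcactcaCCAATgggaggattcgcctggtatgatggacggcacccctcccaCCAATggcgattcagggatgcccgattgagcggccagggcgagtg
Id3: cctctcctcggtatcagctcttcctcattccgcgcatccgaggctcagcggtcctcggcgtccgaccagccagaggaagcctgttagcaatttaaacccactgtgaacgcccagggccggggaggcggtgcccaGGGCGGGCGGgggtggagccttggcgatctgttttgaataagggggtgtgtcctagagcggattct
Id4: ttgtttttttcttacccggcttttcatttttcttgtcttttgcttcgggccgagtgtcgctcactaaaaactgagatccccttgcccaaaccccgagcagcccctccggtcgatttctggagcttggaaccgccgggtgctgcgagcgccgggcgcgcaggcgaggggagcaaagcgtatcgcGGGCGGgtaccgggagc
A CCAAT box stood in 28.8% and a GC box in 24.2% of the 33469 promoter windows of this length in the table. The Id1 window held 1 CCAAT box and 2 GC boxes, that of Id2 3 CCAAT boxes and 0 GC boxes, that of Id3 2 GC boxes that overlap, and that of Id4 1 GC box. None of these windows held the AP-1 motif TGANTCA (5.22% of all promoters), the cAMP response element TGACGTCA (0.944%), the Egr motif GCGNGGGCG (3.05%) or the BMP-Smad palindrome GGCGCC (6.56%). Among the other members with a promoter in the table, Bmpr1a held 1 AP-1 match and Bambi held 1 palindrome and 1 GC box. These matches describe letters in a window, not bound sites, and sequence outside the window was not searched. G and C made up 55.5%, 63.5%, 62.5% and 60.0% of the Id1, Id2, Id3 and Id4 windows, against a median of 51.0% over all windows.

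Libraries held 13601635 to 19001819 reads in genes. Levels are given as CPM, read counts relative to the library total after edgeR's TMM scaling; they are not corrected for transcript length, and are compared between groups and not between genes. Fold changes are log2 values with their standard error (SE), adjusted p comes from the quasi-likelihood test of edgeR, adjusted after Benjamini and Hochberg over 10128 genes, and the threshold is 0.05. In bulk RNA, fewer cells of a type and less RNA per cell cannot be told apart. The basal cell markers were present, with the summed level of 8 listed genes at 16494 to 18908 CPM in vehicle, 4678 to 5473 CPM at 6 h and 5550 to 6466 CPM at 12 h. Krt5, a keratin of basal cells, went from a mean of 6827 CPM in vehicle to 402 CPM at 6 h and 489 CPM at 12 h, and Tp63, the factor that holds these cells dormant, from 219 to 47.9 and 90.7 CPM. The keratin Krt14 and the integrins Itga6 and Itgb4 were also lower at both times. Other markers of the list did not follow them: Icam1 had means of 143, 176 and 359 CPM, Cd44 1816, 2355 and 1684 CPM, and Egfr 45.5, 38.4 and 70.9 CPM. Of the markers of other cells, 8 of 9 neuronal, 8 of 10 fibroblast and pericyte, and 9 of 10 endothelial and glial genes stayed under 1 CPM in every library, and the general leukocyte gene Ptprc had no read. Summed levels ran from 0.863 to 1.07 CPM in vehicle, 1.10 to 1.62 CPM at 6 h and 1.57 to 2.98 CPM at 12 h for neuronal genes. For endothelial and glial genes they ran from 0.531 to 1.12 CPM, 1.54 to 2.20 CPM and 2.11 to 4.42 CPM, and for fibroblast and pericyte genes from 4.89 to 6.60 CPM, 2.50 to 4.80 CPM and 2.31 to 4.25 CPM. Immune markers summed to 26.7 to 29.2 CPM, 70.9 to 72.9 CPM and 83.8 to 95.7 CPM, with 5 of 8 under 1 CPM throughout and most of the sum from Cd68, a lysosomal gene (means 19.6, 69.4 and 85.6 CPM). Cd14 of the same list was lower at both times (means 7.80, 1.48 and 3.26 CPM). Sustentacular and gland markers summed to 1207 to 1412 CPM, 1954 to 2015 CPM and 2189 to 2530 CPM, with 4 of 7 under 1 CPM and most of the sum from the keratin Krt8 (means 1304, 1871 and 2150.4 CPM). Sox9 (means 18.0, 72.5 and 137 CPM) and Krt18 (means 6.49, 36.7 and 37.8 CPM) were also higher at both times. The sustentacular genes Cyp2g1 and Ermn had no read. The part of these shifts in the results below was not tested.

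At 6 h, 8 of the 9 tested members were higher than in vehicle and 1 was lower, in a comparison that called 76.8% of all genes tested (37.8% higher and 39.0% lower). At 12 h, 7 were higher and 2 lower, where 75.8% of all genes were called (37.7% higher and 38.2% lower). Between 12 h and 6 h, 1 was higher, 2 were lower and 6 did not pass, against 51.1% of all genes called (25.3% higher and 25.8% lower). The tested members had a median log2 fold change of 1.40 at 6 h and 1.40 at 12 h, where all genes tested had medians of -0.03 and -0.02, and a median of 0.02 between 12 h and 6 h, where all genes had 0.01. Vehicle and PMA libraries did not overlap for 8 of the 9 tested members at 6 h and for 9 of 9 at 12 h, as for 79.0% and 78.7% of all genes tested. The 2 PMA groups did not overlap for 4 of 9 members, as for 58.0% of all genes. Smad6 did not pass the filter on low counts and was not tested. Bmp4 passed that filter only through PMA libraries, so against vehicle it could not be called lower. The counts of higher members, and of members that did not overlap at 12 h, include it. The medians include Bmp4 too, which has no read in vehicle. Set at its bound, Bmp4 stays above the middle value, so that setting could not move them. Without Bmp4 the median lies between Id3 (0.95) and Id4 (1.40) at 6 h. At 12 h it lies between Id1 (1.11) and Id3 (1.40).

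**Figure D1:**
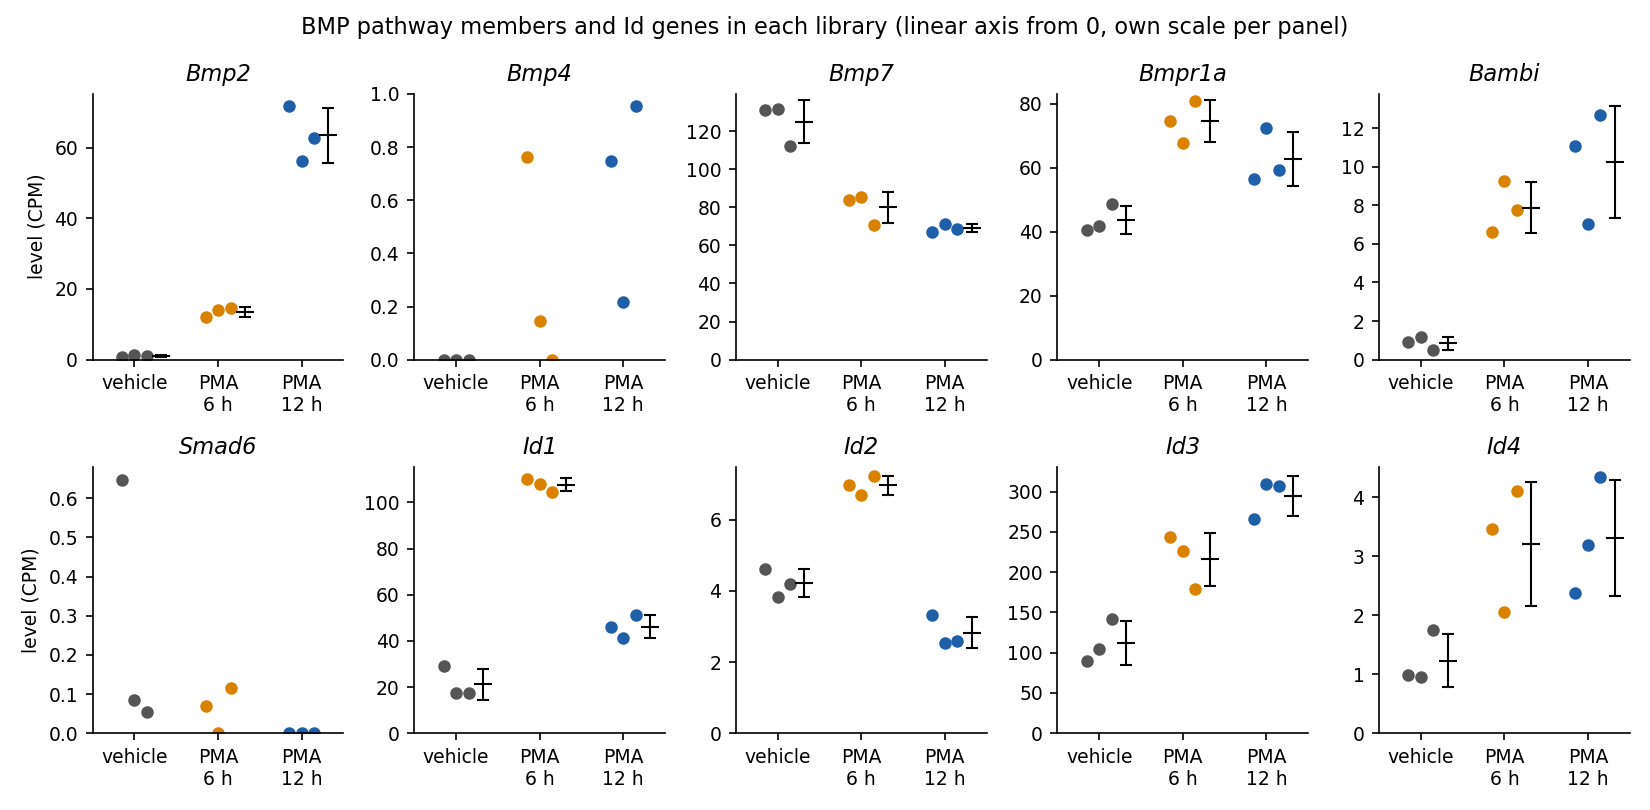
Level (CPM, linear axis from 0, own scale per panel) of each of the 10 genes in each library, with points for the 3 libraries per group and black bars for mean ± SD, left out for Bmp4 and Smad6, where several libraries had 0 reads. Bmp2 climbs from about 1.06 to 63.5 CPM, Id1 peaks at 6 h at 107.7 CPM, and Id2 is lowest at 12 h.

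Among the ligands, Bmp2, a known inducer of Id genes, rose at 6 h and again by 12 h. Its level was 0.691, 1.33 and 1.17 CPM in the vehicle libraries, 12.0, 14.0 and 14.7 CPM at 6 h, and 71.7, 56.2 and 62.6 CPM at 12 h. The 3 groups did not overlap, and their means were 1.06 ± 0.333, 13.6 ± 1.44 and 63.5 ± 7.79 CPM (SD, n = 3). The log2 fold change was 3.67 ± 0.20 (SE) at 6 h (edgeR adjusted p = 1.7e-11) and 5.90 ± 0.19 at 12 h (edgeR adjusted p = 2.5e-14), a 59.6-fold higher level. The step from 6 h to 12 h was 2.22 ± 0.15 (edgeR adjusted p = 3.3e-09).

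Bmp7, a ligand with roles in epithelial development, moved the other way. Its level was 131, 132 and 112 CPM in vehicle, 84.0, 85.5 and 70.7 CPM at 6 h, and 67.1, 71.5 and 68.7 CPM at 12 h. Every PMA library was below every vehicle library, and the PMA groups overlapped. The gene fell by 0.64 ± 0.09 at 6 h (edgeR adjusted p = 4.6e-06) and by 0.86 ± 0.09 at 12 h (edgeR adjusted p = 1.7e-07) on the log2 scale. From 6 h to 12 h the difference was -0.21 ± 0.09 (edgeR adjusted p = 0.0648).

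Bmp4, a close relative of Bmp2, was near the limit of detection. It had 0 reads in each vehicle library, 11, 2 and 0 reads at 6 h, and 11, 3 and 11 reads at 12 h. With these counts it passed the filter on low counts only through PMA libraries, so a lower call against vehicle was not possible. Against a floor of 3 reads over the vehicle group, its level was at least 6.23-fold higher at 6 h (edgeR adjusted p = 0.0195) and at least 13.6-fold higher at 12 h (edgeR adjusted p = 0.0030). These bounds take the PMA reads as counted and leave out their counting error, so the true fold may be lower. The 6 h call rested on 1 library: without PMA 6 h replicate 1 only 2 reads were left and adjusted p was 0.196, and limma-voom gave 0.0580. Leaving out vehicle replicate 1 or 2 lowered the 12 h bound to 8.77-fold or 8.75-fold and the 6 h bound to 4.02-fold or 4.01-fold. Leaving out PMA 6 h replicate 3 raised the 6 h bound to 10.1-fold. From 6 h to 12 h its ratio was 2.18 (95% interval 1.07 to 4.64, counting error only), and the test across libraries did not pass (edgeR adjusted p = 0.361). That ratio was 9.66 (2.41 to 84.2) with PMA 6 h replicate 1 left out and 1.35 (0.665 to 2.87) with PMA 6 h replicate 3 left out.

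Set side by side within a library, the count ratio of Bmp2 to Bmp7 was 0.00526, 0.0101 and 0.0104 in vehicle, 0.143, 0.164 and 0.209 at 6 h, and 1.07, 0.787 and 0.912 at 12 h. This ratio does not depend on library scaling, and its groups did not overlap. The exact two-sided permutation test gave p = 0.1 for each comparison, the smallest p that 3 against 3 libraries allow, and 0.129 after Benjamini-Hochberg adjustment over the 9 ratio comparisons made. No rule fixed beforehand picked the gene pairs of these ratios, and earlier results of these data were known, so the ratios are given as a description.

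**Figure D2:**
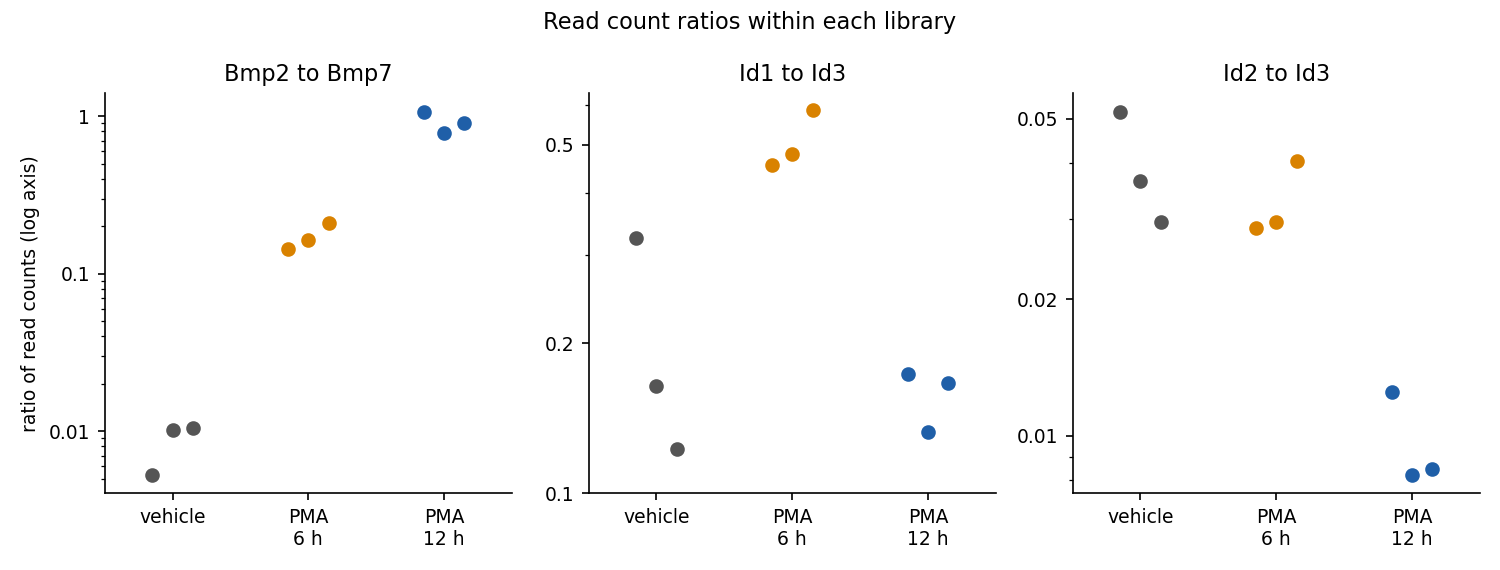
Ratio of read counts within each library on a log axis for Bmp2 to Bmp7, Id1 to Id3 and Id2 to Id3, with 1 point per library. The Bmp2 to Bmp7 ratio runs from 0.00526 to 1.07, Id1 to Id3 is highest at 6 h, and Id2 to Id3 is lowest at 12 h.

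Bmpr1a encodes a type I receptor that binds BMP2 and BMP4. It stood at 40.6, 41.7 and 48.5 CPM in vehicle, 74.8, 67.9 and 81.1 CPM at 6 h, and 56.6, 72.4 and 59.5 CPM at 12 h. All PMA libraries were above all vehicle libraries, while the PMA groups overlapped. The gene rose by 0.78 ± 0.11 at 6 h (edgeR adjusted p = 4.2e-06) and by 0.53 ± 0.11 at 12 h (edgeR adjusted p = 2.9e-04). These gains depended on the scaling: without normalization the value was 0.24 at 6 h (adjusted p = 0.0584) and -0.050 at 12 h. From 6 h to 12 h the difference was -0.25 ± 0.11 (edgeR adjusted p = 0.0649).

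Without normalization the median of all genes shifted by -0.54 at 6 h and -0.58 at 12 h, and with upper-quartile scaling by -0.26 and -0.27. Of all calls, 49.3% were higher at 6 h with TMM, 38.5% with upper-quartile scaling and 28.0% without normalization, and at 12 h 49.7%, 38.0% and 26.0%. TMM factors were 0.848 to 1.31, above 1 in each vehicle library.

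Bambi is a receptor decoy without a kinase domain that dampens BMP signalling. Its level was 0.906, 1.16 and 0.478 CPM in vehicle, 6.64, 9.25 and 7.75 CPM at 6 h, and 11.1, 7.05 and 12.7 CPM at 12 h. Both PMA groups stood clear of vehicle, and their own ranges overlapped. The increase was 3.18 ± 0.31 at 6 h (edgeR adjusted p = 5.0e-08) and 3.56 ± 0.31 at 12 h (edgeR adjusted p = 1.2e-08). The change from 6 h to 12 h did not pass (0.38 ± 0.26, edgeR adjusted p = 0.231).

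Smad6, an inhibitory Smad that blocks BMP receptors, had 15, 2 and 1 reads in vehicle, 1, 0 and 2 reads at 6 h, and 0, 0 and 0 reads at 12 h. Vehicle replicate 1 thus held most of its reads. The level was 4.17-fold lower at 6 h (95% interval 1.22 to 22.1, counting error only) and at least 3.68-fold lower at 12 h. The 12 h bound uses the floor of 3 reads and leaves out the counting error of the vehicle reads, so the true fold may be smaller. Without vehicle replicate 1, both comparisons were at or under the floor of 3 reads and no fold could be given. The 6 h ratio was 7.74 (1.22 to 323) without PMA 6 h replicate 3, and leaving out PMA 12 h replicate 1 or 2 lowered the 12 h bound to 2.33-fold or 2.41-fold. Fitted with no filter, edgeR gave an adjusted p of 0.206 at 6 h and 0.0267 at 12 h, and DESeq2 gave 0.353 and 0.0597.

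Among the Id genes, Id1 and Id2 were highest at 6 h. Id1 stood at 29.0, 17.2 and 17.4 CPM in vehicle, 110.3, 108 and 105 CPM at 6 h, and 46.1, 41.0 and 51.1 CPM at 12 h. The 3 groups did not overlap: the gene was highest at 6 h and partly returned. It rose by 2.34 ± 0.18 at 6 h (edgeR adjusted p = 1.2e-07) and was still up by 1.11 ± 0.18 at 12 h (edgeR adjusted p = 1.1e-04), and it fell by 1.23 ± 0.17 between 6 h and 12 h (edgeR adjusted p = 8.9e-05). Vehicle replicate 1 had the highest level of its group, and without it the changes were 2.63 and 1.41.

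Id2 also rose early and then dropped below vehicle. Its levels were 4.62, 3.82 and 4.20 CPM in vehicle, 6.99, 6.68 and 7.23 CPM at 6 h, and 3.33, 2.54 and 2.60 CPM at 12 h. Again the 3 groups did not overlap. The change was 0.73 ± 0.21 at 6 h (edgeR adjusted p = 0.0053), -0.57 ± 0.23 at 12 h (edgeR adjusted p = 0.0333) and -1.30 ± 0.23 between 6 h and 12 h (edgeR adjusted p = 1.6e-04). The 6 h call was lost with upper-quartile scaling (0.47, adjusted p = 0.0573) and without normalization (0.19, adjusted p = 0.435). The 12 h call was lost with no filter (adjusted p = 0.0512) and without vehicle replicate 1 (0.0951), vehicle replicate 3 (0.0604), PMA 12 h replicate 2 (0.0998) or PMA 12 h replicate 3 (0.0887).

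Id3 rose and stayed high. It measured 89.1, 105 and 142 CPM in vehicle, 243, 226 and 179 CPM at 6 h, and 266, 310.0 and 307 CPM at 12 h. The 3 groups did not overlap. The increase was 0.95 ± 0.17 at 6 h (edgeR adjusted p = 8.0e-04) and 1.40 ± 0.18 at 12 h (edgeR adjusted p = 6.2e-05). From 6 h to 12 h the difference of 0.45 ± 0.17 did not pass (edgeR adjusted p = 0.0566) and passed under 8 of 19 alternatives, among them DESeq2 (adjusted p = 0.00619).

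Id4 was low in every group. It measured 0.993, 0.945 and 1.75 CPM in vehicle, 3.46, 2.06 and 4.10 CPM at 6 h, and 2.38, 3.20 and 4.34 CPM at 12 h. Both PMA groups were above vehicle and overlapped each other. The increase was 1.40 ± 0.37 at 6 h (edgeR adjusted p = 0.0024) and 1.43 ± 0.38 at 12 h (edgeR adjusted p = 0.0024), and 12 h and 6 h differed by 0.02 ± 0.36 (edgeR adjusted p = 0.962).

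**Figure D3:**
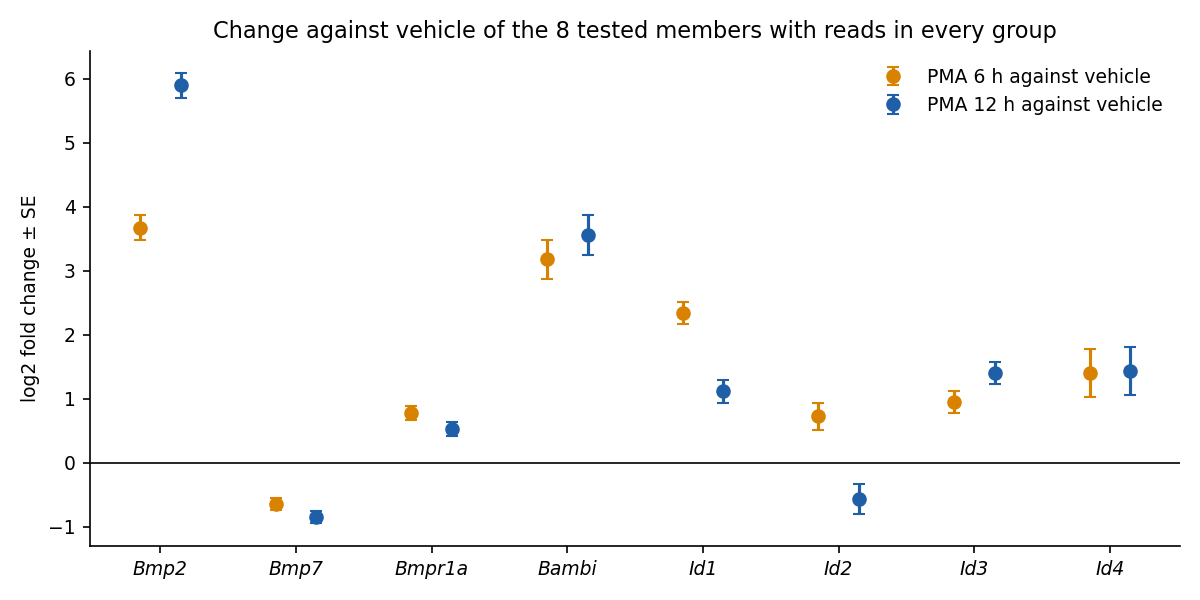
Log2 fold change against vehicle ± SE at 6 h (orange) and 12 h (blue) for the 8 tested genes with reads in every group. Bmp2 reaches 5.90 at 12 h, Id1 is higher at 6 h (2.34) than at 12 h (1.11), and Id2 stands above 0 at 6 h and below 0 at 12 h.

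The ratio of Id1 to Id3 counts was 0.325, 0.164 and 0.123 in vehicle, 0.454, 0.478 and 0.585 at 6 h, and 0.173, 0.132 and 0.166 at 12 h. The 6 h libraries stood above all others, and vehicle and 12 h overlapped. The exact two-sided permutation p was 0.1 for 6 h against vehicle and for 12 h against 6 h (0.129 adjusted) and 0.9 for 12 h against vehicle. The ratio of Id2 to Id3 was 0.0518, 0.0365 and 0.0296 in vehicle, 0.0288, 0.0296 and 0.0404 at 6 h, and 0.0125, 0.00820 and 0.00847 at 12 h. Here the 12 h libraries stood below all others (exact permutation p = 0.1, 0.129 adjusted, against either group), and 6 h against vehicle gave p = 0.6 (0.675 adjusted).

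Patterns were compared by the root mean square difference of centred log2 levels over the 9 libraries, with a prior count of 2. Among tested members, Id3 and Id4 were nearest (0.40) and Bmp2 and Bmp7 farthest (4.55). Over all genes tested, the nearest to Bmp2 were Gpsm1 (0.361), Neurl3 (0.388) and Prl8a5 (0.439), and Gpsm1, a modulator of G-protein signalling, went from a mean of 30.4 to 356.8 and 1428 CPM. In vehicle, Neurl3 had a mean of only 0.912 CPM and Prl8a5 of 0.265 CPM, so the prior count makes their ranks uncertain. Nearest to Id1 were Slc8a2 (0.172), Akap2 (0.198) and Nrbp1 (0.219). In vehicle Akap2 had 0.806 CPM, and Slc8a2 had only 0.0752 CPM. Its fitted changes were 3.69 at 6 h and 1.88 at 12 h, against 2.34 and 1.11 for Id1, and the prior count draws a gene this low towards smaller differences, so its rank is uncertain. Id2 lay nearest to Ddx52 (0.115), Smarca5 (0.128) and Rnf6 (0.141), and Id3 to Hmga2 (0.132), Rhbdd1 (0.137) and Klk8 (0.141). These genes were picked for their likeness, which is given as a description.

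The other genes of the pathway were counted in 8 lists, each with its median log2 fold change at 6 h and 12 h, beside -0.03 and -0.02 for all genes tested. Counts of called genes are to be read against the 76.8% of all genes called at 6 h (37.8% higher, 39.0% lower) and the 75.8% called at 12 h (37.7% higher, 38.2% lower). The medians were -0.64 and -0.49 for ligands, -0.31 and -0.46 for receptors, 0.99 and 0.46 for Smad transducers, -0.33 and 0.16 for secreted modulators, 1.32 and 1.03 for intracellular inhibitors, 0.82 and 1.54 for target genes, 0.69 and 0.31 for Id partners, and 1.11 and -0.36 for bHLH factors. Of 9 other BMP and GDF ligands in the tables, 3 were tested and only Bmp3 passed: it fell by 3.32 at 6 h (edgeR adjusted p = 1.2e-06) and fell by 1.13 at 12 h (edgeR adjusted p = 0.0062). Without PMA 6 h replicate 3 the list had 2 lower genes at 6 h. Of 8 tested receptors and coreceptors, 3 were higher and 4 lower at 6 h, and 3 higher and 4 lower at 12 h, so 7 of 8 were called at each time, near the 76.8% and 75.8% of all genes. The coreceptor Tgfbr3 fell at 6 h (-2.88) and 12 h (-2.36), as did the type I receptor Bmpr1b (-2.56 and -0.67) and the coreceptor Eng (-2.55 and -1.60). Eng had few reads, with 151 in vehicle, 17 at 6 h and 30 at 12 h. The 6 h value of Eng was -3.53 without PMA 6 h replicate 2 and -1.92 without PMA 6 h replicate 3. Bmpr1b lost its 12 h call when any 1 of replicates 2 and 3 of vehicle or of PMA 12 h was left out. Eng lost its own when vehicle replicate 2 or PMA 12 h replicate 1 was left out, and leaving out the former left 2 lower genes in the list at 12 h. The type II receptor Acvr2b was 1.10 at 6 h (edgeR adjusted p = 0.189) and rose by 2.05 at 12 h (edgeR adjusted p = 0.0127), a call lost without normalization (1.49) and when vehicle replicate 2 or PMA 12 h replicate 2 was left out. Acvr2b had only 15, 23 and 39 reads in vehicle, at 6 h and at 12 h. It passed the filter on low counts only through PMA libraries. The 8 tested receptors and coreceptors include it, as do the 3 called higher and the 7 called at 12 h.

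Of the transducers, Smad4 rose by 1.47 at 6 h and 1.24 at 12 h, Smad5 by 0.79 and 0.46, and Smad1 by 0.99 at 6 h, with 0.24 at 12 h (edgeR adjusted p = 0.0679). With PMA 12 h replicate 1 left out, Smad1 passed at 12 h too (0.35, adjusted p = 0.0170). Without normalization Smad5 at 12 h was -0.12 and Smad1 -0.33. Smad9 had no read. Of 8 tested intracellular inhibitors, 7 were higher and 1 did not pass at 6 h, and 7 were higher and 1 lower at 12 h, where 37.8% and 37.7% of all genes were higher. In either direction, 7 of 8 were called at 6 h and 8 of 8 at 12 h, against 76.8% and 75.8% of all genes. Smad7, the inhibitory Smad that also acts on TGF-beta and activin receptors, rose by 5.30 at 6 h (39.3-fold, edgeR adjusted p = 3.6e-11) and 4.76 at 12 h. Tob1 rose by 2.58 and 1.61, the ubiquitin ligase Smurf1 by 1.83 and 1.35, and Tob2 by 1.61 and 1.09.

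Among 6 tested secreted antagonists and modulators, 2 were higher and 3 lower at 6 h, and 3 were higher and 3 did not pass at 12 h. That is 5 of 6 called at 6 h, near the 76.8% of all genes, and 3 of 6 at 12 h, below the 75.8%. Fst, which binds activins and some BMPs, rose by 2.48 and 1.93. Fstl1 fell by 2.90 at 6 h (-3.90 with PMA 6 h replicate 2 left out) and was -0.15 at 12 h (edgeR adjusted p = 0.832). Its values rest on only 66, 6 and 38 reads in vehicle, at 6 h and at 12 h. The protease Bmp1 fell by 1.13 at 6 h and was -0.20 at 12 h (edgeR adjusted p = 0.0936). At 12 h it passed as lower with vehicle replicate 1 left out (-0.30, edgeR adjusted p = 0.0169). It also passed as lower there with upper-quartile scaling (-0.47, edgeR adjusted p = 5.0e-04) and without normalization (-0.78, edgeR adjusted p = 1.3e-06). Nbl1 rose by 1.25 at 12 h, with -0.06 at 6 h (edgeR adjusted p = 0.722), where it passed as lower with upper-quartile scaling (-0.31, adjusted p = 0.0493) and without normalization (-0.59, adjusted p = 7.1e-04). With vehicle replicate 2 or PMA 6 h replicate 2 left out, 1 gene of the list was higher at 6 h. With vehicle replicate 1 or 3 or PMA 12 h replicate 2 left out, 1 was lower at 12 h.

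Of 6 tested BMP target genes outside the Id family, 3 were higher at 6 h and 4 at 12 h, and the others did not pass. The called shares are below the 76.8% and 75.8% of all genes called in either direction. Genes called higher were 37.8% and 37.7% of all genes, and no gene of this list was called lower. Tbx3, a transcriptional repressor, rose by 2.64 and 3.19, Runx2 by 1.28 and 1.66 and Dlx3 by 1.32 and 1.42. Gata3 rose by 2.81 at 12 h, with 0.35 at 6 h (edgeR adjusted p = 0.342) and -0.18 there without normalization.

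Of 6 tested E proteins and other Id partners, 4 were higher and 1 lower at each time, so 5 of 6 were called, near the 76.8% and 75.8% of all genes. Tcf3, which encodes the E2A proteins, fell at 6 h (-1.59) and 12 h (-1.59), while Tcf4 rose by 1.38 and 1.64. Tcf12 was 0.15 at 6 h (edgeR adjusted p = 0.153) and rose by 0.37 at 12 h (edgeR adjusted p = 0.0015), but was -0.39 and -0.21 without normalization. The ETS factor Ets1 rose by 0.76 and 1.48, and Elk1 by 0.89 at 6 h, with 0.25 at 12 h (edgeR adjusted p = 0.0593), where it passed with PMA 12 h replicate 1 left out (0.31, adjusted p = 0.0427). Of 11 bHLH factors, 5 had no read and 3 were tested. Hes1, a repressor downstream of Notch, rose by 2.04 and 2.63, Hes6 fell (-0.64 and -0.56), and Bhlhe40 rose by 1.11 at 6 h and fell by 0.36 at 12 h.

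**Figure D4:**
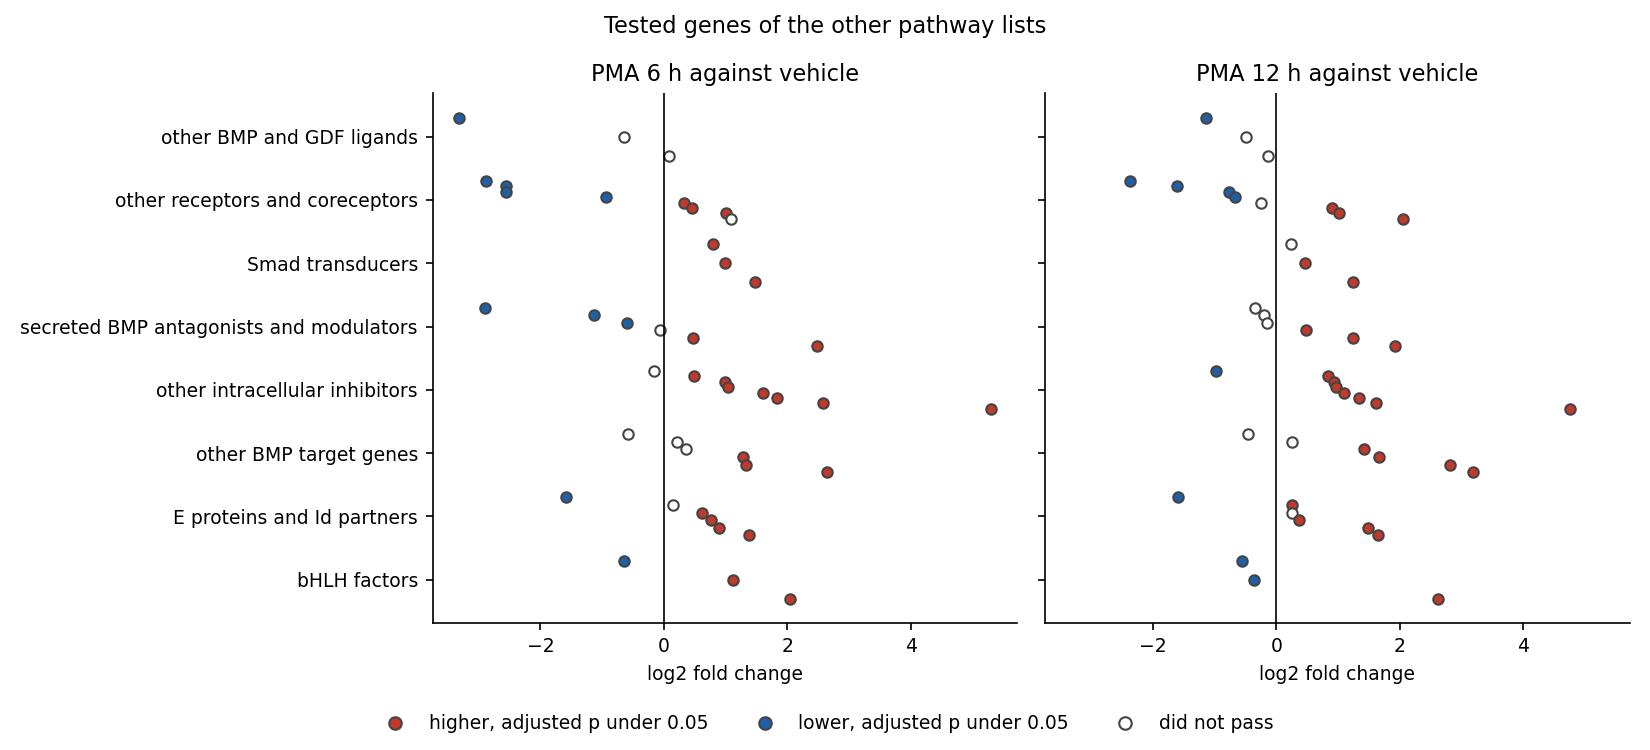
Log2 fold change against vehicle of each tested gene in the 8 other pathway lists, at 6 h and at 12 h, with filled points for genes past an adjusted p of 0.05. Of the 8 intracellular inhibitors, 7 lie above 0 and pass at each time, and Smad7 is the farthest right at 5.30 and 4.76.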

How the data were processed

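RNA-seq was measured in 9 libraries, 3 per group. Each deposited table holds counts of reads per gene, which the authors made by aligning to rn6 with STAR 2.7.5b, per the submitters' processing notes; the sources used here do not give the annotation. The unstranded column was used, in which antisense partners are not told apart. The 4 summary lines, 28.7% to 32.2% of reads, were kept out, and a deposited table of values normalized with DESeq2 was not used.

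Genes passed edgeR's filterByExpr at a minimum count of 10 (10128 of 17315). Counts were scaled by TMM and fitted with group as the only term over all 9 libraries in edgeR 4.0.16 (R 4.3.3), with its robust quasi-likelihood test, Benjamini-Hochberg adjustment and a threshold of 0.05. The SE is the absolute log2 fold change divided by the square root of F. Fits with limma 3.58.1 and DESeq2 1.42.0, other scalings and filters, a replicate block and each library left out were alternatives. The script was tested on simulated data. Replicates differed by 3.88 to 27.8 times counting error (chi-square per degree of freedom), so none were copies. A gene with 0 reads in a group was given a floor of 3 reads over the group. Intervals are exact at 95% and cover counting error only. Bounds from the floor leave out the counting error of the group that has reads, and the spread between libraries.

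All 10 members are named. Of each other pathway list, the at most 4 called genes with the largest change are named, beside every tested Smad transducer and Tcf3, Tcf4 and Tcf12. Members and lists were chosen with earlier results of these data known, and alternatives for the pathway genes were added after seeing the data. Promoters came from a RefSeq table (GRCr8), which held 7 of the 10 members; that of Bmp4 overlaps the gene model and is not shown.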

Additional observations from a re-analysis of the deposited data

How the results depend on the processing

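Each of 27 member values was recomputed under up to 19 alternatives (505 values in all): 476 kept direction and side of the threshold, 10 lost the threshold, 14 gained it and 5 reversed. Reversals were Bmpr1a at 12 h without normalization (-0.050) and Id4 between 12 h and 6 h without normalization (-0.026), by limma-voom (-0.0073) and with PMA 6 h replicate 2 (-0.21) or PMA 12 h replicate 3 (-0.21) left out, in a range of -0.21 to 0.25 over libraries left out. Members called between 12 h and 6 h numbered 3, but 5 under upper-quartile scaling and 5 when counts were not normalized. Among pathway genes, reversals with upper-quartile scaling were Tcf12 at 6 h (-0.11), Smad1 (-0.025) and Elk1 (-0.017) at 12 h; without normalization they were Tcf12 (-0.39) and Gata3 (-0.18) at 6 h, and Smad1 (-0.33), Elk1 (-0.33), Smad5 (-0.12) and Tcf12 (-0.21) at 12 h. Over libraries left out, Nbl1 at 6 h (-0.06) ran from -0.17 to 0.035 (0.035 leaving out vehicle replicate 2, 0.028 leaving out PMA 6 h replicate 3). Fstl1 at 12 h was 0.068 by limma-voom and ran from -0.63 to 0.34 (0.34 leaving out vehicle replicate 3, 0.11 leaving out PMA 12 h replicate 3). Upper-quartile scaling and no normalization both gave 1 higher receptor at 6 h (3 with TMM), 1 higher transducer at 12 h (2), 1 higher secreted modulator at 6 h (2), 2 lower ones at 12 h, 1 lower intracellular inhibitor at 6 h and 2 higher Id partners at 12 h (4). Both gave 2 lower ligands at 6 h (1), and no normalization alone gave 3 lower ligands at 12 h (1), 1 lower transducer at 12 h, and 2 lower Id partners at 6 h (1) and 3 at 12 h (1). None of these causes was tested. The labels do not say what a replicate number stands for, so it was not a block in the main fit. Same-numbered libraries did not deviate together (0 of 9 pair correlations over 0.1, and 0 of 9 libraries correlated best with their own number). With the replicate block 9, 9 and 3 members and 7650, 7539 and 4955 genes were called at 6 h, at 12 h and between them, against 7776, 7682 and 5175 without it. Bmp4 (0, 13 and 25 reads in vehicle, 6 h and 12 h) and Smad6 (18, 3 and 0) rested on few reads. Among the pathway genes, Fstl1 (66, 6 and 38), Eng (151, 17 and 30) and Acvr2b (15, 23 and 39) also had few reads in at least 1 group.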
